A study of Mus musculus with 12 samples.

Results

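Old myeloid-biased hematopoietic stem cells (My-HSCs) were compared with old lymphoid-biased hematopoietic stem cells (Ly-HSCs) by RNA-seq. The comparison uses 6 of the 12 libraries of the study, 3 of old My-HSCs and 3 of old Ly-HSCs, which were chosen by the cell type and age in the labels. Both groups came from bone marrow of female C57BL6J mice aged 18 months, and the labels name no treatment, transgene or mutant allele in either. The other 6 libraries are the same pair of subsets from mice of 8 to 10 weeks, or 8 to 12 weeks in the protocol text, and serve here only as a second pair of groups. Cells of both subsets lacked the lineage markers, CD48 and CD135 and carried Sca-1 and c-kit. They were then divided by CD150, with low CD150 defining Ly-HSCs and high CD150 defining My-HSCs. Per the labels, a separate group of mice stands behind each of the 3 libraries of a subset, so the spread between libraries is a spread between pools, and each library averages over the cells of its pool. In bulk RNA of this kind, a difference in the share of cells that express a gene and a difference in RNA per cell cannot be told apart.

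Hematopoietic stem cells renew themselves and give rise to all blood lineages, but single stem cells differ in the lineages they favour. CD150, the product of Slamf1, marks that difference in the mouse: stem cells with high CD150 tend to yield more myeloid cells and platelets, and those with low CD150 more lymphocytes. The CD150-high fraction is known to expand in old marrow.

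All values are FPKM, in which the fragments of a gene are divided by its transcript length and by the fragments mapped in that library. Values are given in the order of libraries 1, 2 and 3 of a group. A difference is the log2(FPKM + 1) of old My-HSCs minus that of old Ly-HSCs with its standard error from limma, so a positive value is higher in My-HSCs, and the added 1 makes the change of low genes look smaller. Of 14143 genes in the table, 10517 reached an FPKM of 1 in at least 3 of the 6 libraries and were tested. A gene is said to be higher or lower by test where limma's p, adjusted over these genes by the Benjamini-Hochberg method, is under 0.05.

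FPKM summed to between 217546 and 228391 in the 6 libraries, and the number of fragments behind them is unknown. Across genes, the 4 libraries numbered 2 or 3 correlated at 0.917 to 0.962 with each other, whichever subset they came from, and the libraries numbered 1 at 0.818 to 0.876 with these 4. The libraries numbered 1 also listed more genes at 0, with 22.3% in Ly-HSCs and 18.2% in My-HSCs against 12.1% to 14.1% in the other 4, and held higher levels of mature cell markers. The summed FPKM of 15 monocyte and macrophage markers was 179, 26.9 and 38.2 in Ly-HSCs and 143, 36.4 and 24.1 in My-HSCs. That of 3 granulocyte markers was 158, 34.7 and 34.7 in Ly-HSCs and 136, 41.2 and 34.2 in My-HSCs. Itgam, the integrin chain of CD11b on monocytes and granulocytes, stood at 160.0, 19.4 and 28.3 FPKM in Ly-HSCs and 125, 23.5 and 18 FPKM in My-HSCs. Mmp9, a metalloproteinase of neutrophil granules, stood at 67.4, 0.372 and 0.629 FPKM in Ly-HSCs and 69.3, 4.32 and 3.53 FPKM in My-HSCs. Cxcr2, a chemokine receptor of neutrophils, stood at 32.8, 0.755 and 0.506 FPKM and 14.5, 1.82 and 1.02 FPKM. Each of these 3 genes and both sums was highest in library 1 of its subset. The remaining granulocyte marker, Padi4, was at 57.7, 33.6 and 33.6 FPKM in Ly-HSCs and 52.0, 35.1 and 29.6 FPKM in My-HSCs. It made up most of the granulocyte sum in libraries 2 and 3 of both subsets. Of 13 granulocyte markers listed, only these 3 had values. Itgam made up most of the monocyte and macrophage sum in every library, so that sum and Itgam are not separate observations. Not every marker followed the number. Spic, of the same list, stood at 2.2, 2.34 and 1.36 FPKM in Ly-HSCs and 0, 1.57 and 0.545 FPKM in My-HSCs. Results are therefore also given without the libraries numbered 1, which leaves 2 libraries in each group. For single genes that did not pass with all 6 libraries, the adjusted p without them is printed only where it is under 0.05. Genes printed without this value include some that did not pass or were not tested there.

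**Figure D1:**
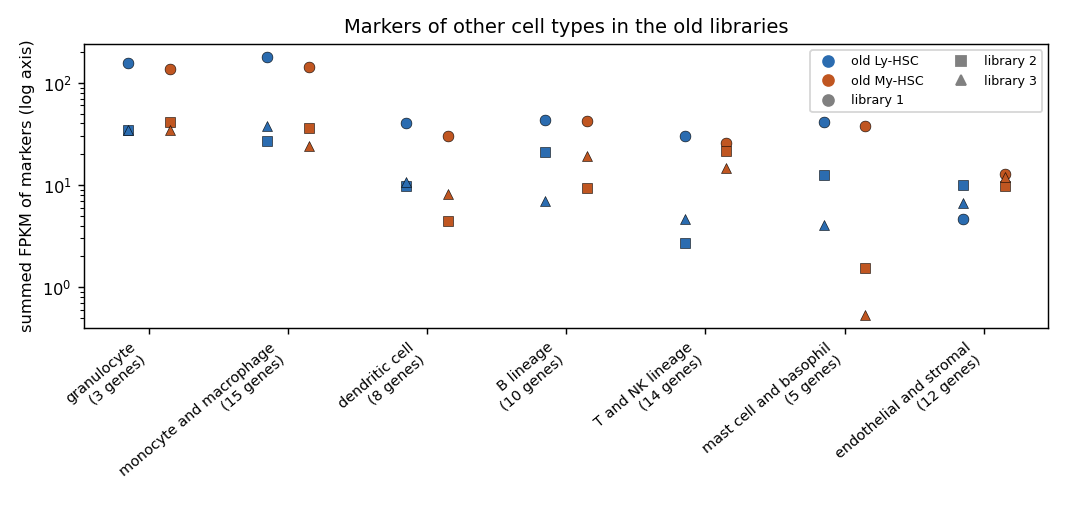
Summed FPKM of markers of other cell types in each of the 6 old libraries, on a log axis, with 1 point per library. Library 1 of Ly-HSCs and library 1 of My-HSCs hold the highest sums of granulocyte and of monocyte and macrophage markers.

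Other cell types were followed by their markers in the same way. In summed FPKM, 10 B lineage markers stood at 42.9, 21.1 and 7.03 in Ly-HSCs and 42.3, 9.38 and 19.2 in My-HSCs. 5 mast cell and basophil markers stood at 41.1, 12.4 and 4.08 in Ly-HSCs and 37.4, 1.53 and 0.536 in My-HSCs. The libraries numbered 1 were again the highest in both lists. The 8 dendritic cell markers, which include Flt3, summed to 40.6, 9.78 and 10.6 in Ly-HSCs and 29.9, 4.46 and 8.25 in My-HSCs. The 12 endothelial and stromal markers did not follow the number, at 4.63, 10.0 and 6.62 in Ly-HSCs and 12.7, 9.71 and 12.0 in My-HSCs. Cdh5, the cadherin that defines endothelium, stayed at 0, 0 and 0 FPKM in Ly-HSCs and 0.193, 0 and 0.102 FPKM in My-HSCs, while Kdr, a receptor of vascular endothelial growth factor, was at 0.427, 2.15 and 0.462 FPKM and 2.48, 4.59 and 3.78 FPKM. None of the tested markers of these cell types passed the test described below.

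The sort itself gave a first check of the labels. Slamf1, which encodes CD150, was at 1.78, 8.33 and 6.47 FPKM in Ly-HSCs and 26.4, 35.3 and 31 FPKM in My-HSCs. The groups did not overlap, and the difference was 2.45 ± 0.43 with an adjusted p of 0.0957 from limma, or 0.00321 without the libraries numbered 1. Flt3, which encodes CD135, a receptor of early lymphoid and multipotent progenitors, was at 15.1, 8.69 and 9.74 FPKM in Ly-HSCs and 3.22, 1.22 and 1.02 FPKM in My-HSCs. Its adjusted p from limma was 0.102, or 0.01 without the libraries numbered 1, although both groups were sorted for absence of the protein. Cd48, whose product was likewise sorted against, overlapped between the groups at 1.26, 10.9 and 0.594 FPKM and 0.308, 2.44 and 0.0585 FPKM, as did Ly6a, which encodes Sca-1, at 52.2, 30.4 and 11.7 FPKM and 28.7, 38.6 and 31.4 FPKM. Kit was not analysed here.

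The comparison asks how the subsets differ in mice whose stem cells have aged. By test, 12 genes differed, 0.114% of those tested, of which 11 were higher in My-HSCs (0.105%) and 1 was lower (0.00951%). The 11 were Clu, Cldn5, Vwf, Clca3a1, Plcl1, Ehd3, Sdpr, Sult1a1, Gda, Fgd5 and Art4, and the gene lower in My-HSCs was Runx3. At an unadjusted p under 0.05 there were 1042 genes (9.91%), 588 higher and 454 lower. Same-numbered libraries of the subsets deviated together, and with the number as a pairing term in the model 3 genes passed (0.0285%), namely Clca3a1, Clu and Sdpr, each with an adjusted p of 0.0396. No gene outside the 12 passed with the pairing. Without the libraries numbered 1 the test gave 177 of 10214 genes, 119 higher and 58 lower, among them 11 of the 12. The filter still asked for an FPKM of at least 1 in 3 libraries. Cldn5, listed at 0 in Ly-HSCs, was therefore not tested there, nor was any gene under 1 FPKM in both remaining libraries of a subset. The count also depended on single libraries: it was 19 without Ly-HSC library 1 and 2 without Ly-HSC library 2. It was 0 without Ly-HSC library 3, My-HSC library 2 or My-HSC library 3, where limma still gave 948, 725 and 636 genes at an unadjusted p under 0.05.

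**Figure D2:**
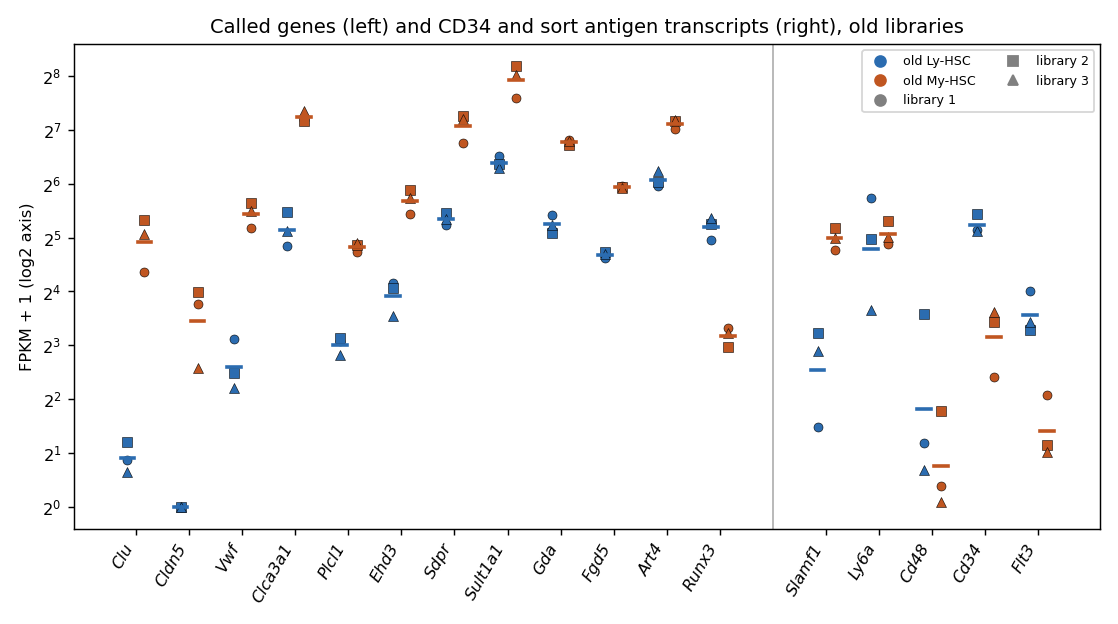
FPKM + 1 on a log2 axis for the 12 genes that differed by test (left) and for Cd34 and the sort antigens (right), with 1 point per library, its shape showing the library number, and a bar at the mean of the log values of each group. In each of the 12 genes all My-HSC points lie on one side of all Ly-HSC points.

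The largest differences by test were those of Clu, Cldn5 and Vwf. Clu, which encodes clusterin, a secreted chaperone also stored in platelets, was at 0.818, 1.29 and 0.558 FPKM in Ly-HSCs and 19.6, 39.2 and 32.4 FPKM in My-HSCs (chromosome 14, 65968483 to 65981547 on GRCm38). This difference of 4.02 ± 0.35 had an adjusted p of 0.00876 from limma, and the lowest My-HSC library was far above the highest Ly-HSC library. Vwf encodes von Willebrand factor, the platelet and endothelial adhesion protein, and marks stem cells biased to platelets (chromosome 6, 125546774 to 125686679). Its values were 7.66, 4.61 and 3.61 FPKM in Ly-HSCs and 35.3, 48.7 and 44.2 FPKM in My-HSCs, a difference of 2.84 ± 0.28 with an adjusted p of 0.00962, or 0.0697 with the pairing, where it no longer passed. Cldn5, which encodes the tight junction protein claudin-5, was listed at 0 in all 3 Ly-HSC libraries and at 12.6, 14.9 and 4.94 FPKM in My-HSCs. It passed at an adjusted p of 0.0421 and missed at 0.0738 with the pairing, and no fold is given against a group listed at 0. It reached the level needed for testing through the My-HSC libraries only. Its gene spans 18776847 to 18778262 of chromosome 16. Of the 12 endothelial and stromal markers whose sums are given above, 1 was at 0 in all 6 libraries and 4 stayed under 1 FPKM in all of them. The sum overlapped between the subsets, Kdr separated them on the My-HSC side, and the part of these cells in the values of Vwf and Cldn5 was not tested.

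Sdpr, also named Cavin2, encodes a coat protein of caveolae, the small invaginations of the plasma membrane (chromosome 1, 51289126 to 51302960). It stood at 36.5, 42.8 and 39.8 FPKM in Ly-HSCs and 107, 152 and 146 FPKM in My-HSCs, a difference of 1.73 ± 0.17 with an adjusted p of 0.00962. Ehd3, an ATPase of endosomal recycling, stood at 16.8, 15.7 and 10.6 FPKM in Ly-HSCs and 42.3, 57.9 and 52.3 FPKM in My-HSCs, with an adjusted p of 0.0311, or 0.0747 with the pairing. Clca3a1 belongs to the family of calcium-activated chloride channel regulators (chromosome 3, 144729677 to 144760977). Its values were 27.9, 43.4 and 34 FPKM in Ly-HSCs and 144, 143 and 164 FPKM in My-HSCs, a difference of 2.09 ± 0.18 with an adjusted p of 0.00876. For all 3 of these membrane genes the spread within a subset was small beside the gap between subsets.

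Signalling genes and enzymes made up the rest of the higher group. Fgd5, an exchange factor for the GTPase Cdc42 that is used as a reporter gene of stem cells, was at 23.7, 25.5 and 25.1 FPKM in Ly-HSCs and 61, 60.4 and 59.8 FPKM in My-HSCs (chromosome 6, 91978878 to 92076004). Its 3 libraries agreed closely within each subset, and the difference of 1.25 ± 0.14 had an adjusted p of 0.0181. Plcl1, a phospholipase C relative without catalytic activity, was at 7.42, 7.84 and 6.04 FPKM and 25.5, 28.1 and 29 FPKM, with an adjusted p of 0.0185. Gda, guanine deaminase of purine breakdown, was at 41.8, 32.9 and 36.7 FPKM in Ly-HSCs and 112, 105 and 109.7 FPKM in My-HSCs (chromosome 19, 21391307 to 21473445). Its difference of 1.53 ± 0.14 had an adjusted p of 0.00962. Sult1a1, a sulfotransferase of phenols, was at 90.5, 81.5 and 77.6 FPKM and 192, 291 and 261 FPKM, with an adjusted p of 0.0181. Art4, a surface protein of the ADP-ribosyltransferase family that carries the Dombrock blood group, was at 61.1, 64.6 and 74.8 FPKM and 129, 142 and 144 FPKM, with an adjusted p of 0.0421. These 5 genes did not pass with the pairing, where their adjusted p lay at 0.0697, 0.0697, 0.051, 0.0697 and 0.0697 in the order given.

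Runx3 was the gene lower in My-HSCs by test. It encodes a transcription factor of the Runt family with known roles in T cells, innate lymphoid cells and dendritic cells (chromosome 4, 135120652 to 135177990). Its values were 30.0, 37 and 40.3 FPKM in Ly-HSCs and 9.0, 6.78 and 8.32 FPKM in My-HSCs, a difference of -2.02 ± 0.21 with an adjusted p of 0.0133, or 0.0697 with the pairing, where it no longer passed. The other 2 genes of the family were not called. Runx2, best known from bone formation, was at 25.8, 26.5 and 30.6 FPKM and 15.4, 11.2 and 18.6 FPKM without overlap, with an adjusted p of 0.251. Runx1, which stem cells need to arise, was at 23.6, 48 and 42.3 FPKM and 44.8, 43.2 and 42 FPKM, and its groups overlapped.

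RefSeq promoter entries on GRCm38.p6 were found for 10 of the 12 genes, and Clu and Vwf are named only. The 250 bases before the start site of the gene lower in My-HSCs and of 2 genes higher in My-HSCs that also passed with the pairing are shown, 5′ to 3′ on the strand of the gene. Capitals mark matches to the Runt family core TGTGGT on either strand.
Runx3, first of its start sites in the table, chr4:135120395-135120644, plus strand: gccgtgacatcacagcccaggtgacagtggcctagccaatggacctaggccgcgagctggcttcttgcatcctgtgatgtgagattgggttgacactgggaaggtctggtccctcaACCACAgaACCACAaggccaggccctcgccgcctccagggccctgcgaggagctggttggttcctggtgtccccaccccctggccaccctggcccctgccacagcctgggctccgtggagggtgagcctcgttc
Clca3a1, chr3:144760978-144761227, minus strand: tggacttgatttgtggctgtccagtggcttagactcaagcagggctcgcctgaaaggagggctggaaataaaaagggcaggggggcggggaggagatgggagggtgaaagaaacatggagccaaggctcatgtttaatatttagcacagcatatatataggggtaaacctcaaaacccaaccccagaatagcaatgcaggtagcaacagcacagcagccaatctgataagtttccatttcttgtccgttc
Sdpr, chr1:51288876-51289125, plus strand: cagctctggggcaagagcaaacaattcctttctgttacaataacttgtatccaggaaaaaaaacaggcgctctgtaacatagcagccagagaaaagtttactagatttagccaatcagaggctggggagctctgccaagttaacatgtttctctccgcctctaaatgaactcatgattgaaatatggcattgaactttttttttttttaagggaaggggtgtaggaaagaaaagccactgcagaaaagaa
The Runx3 window holds 2 matches, separated by a pair of bases and both on the opposite strand. Neither of the other windows holds a match to this core, to the GATA core AGATAA or to the ETS core AGGAAG. Of the 10923 windows of genes tested, 10.7% hold TGTGGT, 5.87% AGATAA and 28.3% AGGAAG, and of the 11 windows of these 10 genes 1, 1 and 2 do. A match is a description of letters, not evidence of binding.

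Below the threshold of the test, further genes separated all My-HSC from all Ly-HSC libraries. Of all genes tested, 963 had every My-HSC library above every Ly-HSC library (9.16%) and 807 the reverse (7.67%), so separation alone is common. These counts include 82 genes that reached the level needed for testing in 1 subset only, where the filter itself fixes the separation. Among those of smallest p on the My-HSC side, Hoxb8, a homeobox transcription factor, was at 0, 1.22 and 0 FPKM in Ly-HSCs and 7.32, 12.2 and 9.19 FPKM in My-HSCs, with an adjusted p of 0.0648 from limma. Jam2, a junctional adhesion molecule, was at 5.48, 4.67 and 6.15 FPKM and 16.4, 31.4 and 23.6 FPKM, with an adjusted p of 0.0648. Pde9a, a phosphodiesterase of cyclic GMP, was at 5.26, 4.88 and 4.39 FPKM and 20.2, 17.1 and 15.6 FPKM. Clec1a, a C-type lectin receptor, was at 39.9, 38.8 and 37.2 FPKM and 72.3, 76.9 and 88.4 FPKM. Without the libraries numbered 1 the adjusted p was 0.0136 for Hoxb8, 0.00405 for Jam2, 0.0124 for Pde9a and 0.01 for Clec1a.

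On the Ly-HSC side, none of the 14 genes of smallest p after Runx3 passed in all 6 libraries. Cd34, a sialomucin whose presence marks short-term stem cells and progenitors, was at 34.3, 42.6 and 34 FPKM in Ly-HSCs and 4.32, 9.82 and 11.2 FPKM in My-HSCs (chromosome 1, 194938819 to 194961279). Its difference of -2.09 ± 0.32 had an adjusted p of 0.0648, or 0.0749 with the pairing and 0.00405 without the libraries numbered 1. Sox4, a transcription factor needed for B cell development, was at 194, 179 and 147 FPKM and 48.7, 95.3 and 73.6 FPKM, with an adjusted p of 0.102, or 0.0331 without those libraries. Cd27, a receptor of the TNF family on lymphocytes and progenitors, was at 131, 109 and 147 FPKM and 49.2, 69.6 and 74.8 FPKM, with an adjusted p of 0.115. Each of these 3 genes had all Ly-HSC libraries above all My-HSC libraries.

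Rgs1, a brake on G protein signals of chemokine receptors, was at 117, 81.6 and 107 FPKM in Ly-HSCs and 52.6, 31.7 and 33.4 FPKM in My-HSCs, with an adjusted p of 0.0804, or 0.00479 without the libraries numbered 1. Vim, the intermediate filament vimentin, was at 95, 76.1 and 65.6 FPKM and 37.9, 37.2 and 26.8 FPKM, with an adjusted p of 0.0869, or 0.0248 without them. Ramp1, the partner chain that makes a receptor for the neuropeptide CGRP, was at 38.7, 42.5 and 49.5 FPKM and 23, 22.6 and 25.2 FPKM, with an adjusted p of 0.113, or 0.0343 without them. Chaf1a and Mcm5 are given with the replication genes, and Flt3 with the sort antigens. The remaining genes of this group were Dtx3, a ubiquitin ligase of the Deltex family, Psmc3ip, a meiotic recombination factor, Haao, an enzyme of tryptophan breakdown, Dnajc6, the clathrin uncoating factor auxilin, and Rfc2, a subunit of the DNA clamp loader. Their log2 differences were -0.82 ± 0.14, -2.62 ± 0.48, -2.57 ± 0.49, -1.73 ± 0.33 and -1.09 ± 0.21 in that order. The adjusted p was 0.102 for Psmc3ip and 0.105 for Dnajc6, or 0.044 and 0.0286 without the libraries numbered 1.

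**Figure D3:**
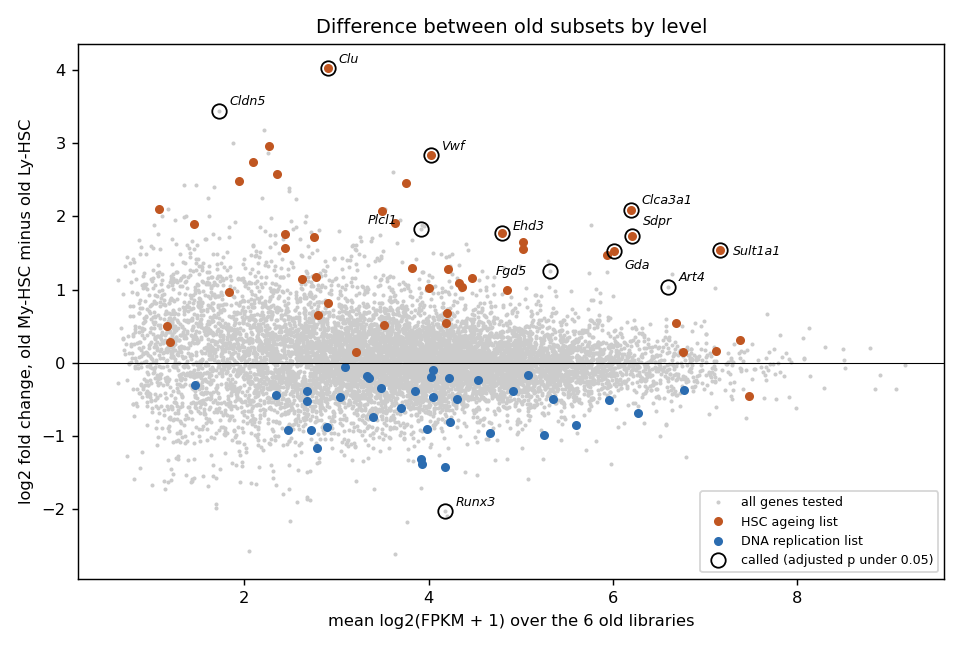
Log2 difference of old My-HSCs minus old Ly-HSCs against the mean level of the 6 libraries, for the 10517 genes tested, with the 12 genes that differed by test marked and named. 11 of the marked genes lie above 0 and Runx3 lies below.

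Platelet and megakaryocyte genes were examined as a list of 35, of which 27 were tested. This list and those that follow were chosen with earlier results of these data known. Their counts, shares and medians are therefore descriptions and not independent evidence. 3 of them were higher by test, Clu, Sdpr and Vwf, and none was lower. By sign 19 were higher and 8 lower, with a median of 0.43 against 0.02 over all genes tested, and 11 separated the groups on the My-HSC side (40.7%) and 3 on the other (11.1%). These shares, here and for the lists that follow, stand beside 9.16% and 7.67% of all genes tested. Surface and adhesion genes stood among the 11. Selp, the P-selectin of platelet granules, was at 25.5, 39.7 and 45.5 FPKM in Ly-HSCs and 86.8, 107 and 111 FPKM in My-HSCs, with an adjusted p of 0.0648, or 0.00405 without the libraries numbered 1. Itgb3, the beta chain of the platelet fibrinogen receptor, was at 15.7, 27.2 and 13.5 FPKM and 41.7, 67.6 and 58.5 FPKM, with an adjusted p of 0.102, or 0.0266 without them. Mmrn1, a protein of platelet granules that binds factor V, was at 162, 154 and 168 FPKM and 244, 259.6 and 264 FPKM, with an adjusted p of 0.102, or 0.0343 without them. Fli1, an ETS factor of megakaryocytes, was at 72.9, 83.6 and 74 FPKM and 113, 128 and 109 FPKM, with an adjusted p of 0.183.

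The platelet list did not have one sign. Itga2b, the alpha chain (CD41) that pairs with the product of Itgb3, was at 33.1, 56.8 and 42.6 FPKM in Ly-HSCs and 18.5, 25.7 and 23.9 FPKM in My-HSCs, on the opposite side from its partner. Its adjusted p was 0.237, or 0.0397 without the libraries numbered 1. Plek, the protein kinase C substrate pleckstrin, was at 112, 76.5 and 61.5 FPKM and 48, 36.9 and 30.7 FPKM, with an adjusted p of 0.187, or 0.0292 without them. Gata1, the master factor of erythroid and megakaryocytic cells, was at 6.43, 12.2 and 4.77 FPKM and 3.82, 1.15 and 1.52 FPKM, with an adjusted p of 0.339. Of 11 erythroid genes tested, 9 were lower and 2 higher by sign with a median of -0.28, and none separated the groups. Klf1, the erythroid Kruppel-like factor, was at 21.6, 7.21 and 0.421 FPKM and 2.59, 0.187 and 0 FPKM, Car1, a carbonic anhydrase of red cells, at 24.2, 5.87 and 1.37 FPKM and 12.5, 0 and 0 FPKM, Epor, the erythropoietin receptor, at 0.648, 2.79 and 1.04 FPKM and 2.64, 2.61 and 2.38 FPKM, and Hemgn had a difference of -0.72 ± 0.43. The same 11 erythroid genes had a median of -0.23 without the libraries numbered 1, with 6 lower and 5 higher.

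Genes of stem cell identity were mostly on the My-HSC side. Of 30 tested, 1 was higher by test (Fgd5), 23 were higher and 7 lower by sign with a median of 0.26, and 10 separated the groups on the My-HSC side (33.3%) and 3 on the other (10%). Mllt3, a chromatin reader that maintains human stem cells, was at 23.4, 20.9 and 22.8 FPKM in Ly-HSCs and 42.6, 48.2 and 48.6 FPKM in My-HSCs, with an adjusted p of 0.0648, or 0.0126 without the libraries numbered 1. Mecom, which encodes the stem cell factor EVI1, was at 63.3, 41.6 and 43.7 FPKM and 75.1, 70.6 and 81.9 FPKM, with an adjusted p of 0.300, or 0.0343 without them. Prdm16, its relative, was at 8.76, 19.3 and 14.4 FPKM and 26.8, 29.3 and 27.5 FPKM. It separated the groups without passing, at an adjusted p of 0.271. Procr, the surface receptor EPCR of stem cells, was close in both groups at 65.8, 50.8 and 60.4 FPKM and 66, 71 and 67.8 FPKM. The 3 on the Ly-HSC side were Cd34, Cd27 and Hoxa9.

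A list of 46 genes known to rise in aged stem cells was described as well. It was written with earlier results of these libraries known, so its direction is not independent evidence. Of the 45 tested, 7 were higher by test, all among the genes above (Clu, Vwf, Clca3a1, Sdpr, Ehd3, Sult1a1 and Gda), and 44 were higher by sign with a median of 1.30. In 34 of the 45 (75.6%) every My-HSC library lay above every Ly-HSC library, and 2 reached the level needed for testing in 1 subset only. Beyond those already given, Nupr1, a stress-induced chromatin protein, was at 9.93, 26.1 and 20.0 FPKM in Ly-HSCs and 46.2, 72.2 and 55 FPKM in My-HSCs, with an adjusted p of 0.120, or 0.011 without the libraries numbered 1. Gpr183, an oxysterol receptor that guides immune cells, was at 1.5, 1.02 and 0.0176 FPKM and 5.36, 18.4 and 18.9 FPKM, with an adjusted p of 0.102, or 0.00321 without them. Amotl2, an angiomotin of the Hippo pathway, was at 3.32, 3.35 and 7.75 FPKM and 20.7, 20.8 and 25.2 FPKM, with an adjusted p of 0.0697, or 0.0257 without them. The exception by sign was Cd74, the invariant chain of class II antigen presentation, at 175, 274 and 186 FPKM and 170.2, 161 and 125 FPKM.

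DNA replication genes lay on the Ly-HSC side throughout. Of 36 tested, 36 were lower in My-HSCs by sign with a median of -0.49, 15 of them separated the groups (41.7% against 7.67% of all genes), and none passed the test. Without the libraries numbered 1, 35 of 36 were lower with a median of -0.61. Among assembly factors, Chaf1a, the large subunit of the complex that places histones on new DNA, was at 54.7, 52.4 and 50.8 FPKM in Ly-HSCs and 23.3, 24.9 and 30.6 FPKM in My-HSCs. Its adjusted p was 0.0804, or 0.0382 without those libraries. Among helicase genes, Mcm5 was at 35.3, 36.7 and 31.3 FPKM and 19.8, 14.8 and 17.2 FPKM, with an adjusted p of 0.105, or 0.0304 without them, and Mcm6 at 98.6, 109 and 86.3 FPKM and 59.9, 64.7 and 56.2 FPKM. Gins1, which activates the helicase, was at 29.6, 17.3 and 22.9 FPKM and 7.54, 7.75 and 10.7 FPKM, and the primase subunit Prim1 at 33.4, 21.3 and 18.3 FPKM and 6.46, 10.6 and 8.65 FPKM. Pcna, the sliding clamp, was at 137, 117 and 119 FPKM and 85.9, 100.3 and 100.2 FPKM, a smaller difference of -0.37 ± 0.14.

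Mitosis and spindle genes had the same sign with more spread. Of 31 tested, 30 were lower in My-HSCs by sign with a median of -0.63, 5 separated the groups (16.1% against 7.67% of all genes) and none passed. Cdc20, the activator of the anaphase-promoting complex, was at 24.5, 14.7 and 9.5 FPKM in Ly-HSCs and 7.63, 8.86 and 5.47 FPKM in My-HSCs. Kif23, a kinesin of cytokinesis, was at 21.7, 12.9 and 9.54 FPKM and 9.54, 4.98 and 4.2 FPKM, and Cep55, which works at the final cut between daughter cells, at 10.0, 7.42 and 6.89 FPKM and 1.06, 3.19 and 5.26 FPKM. Birc5, the survivin of the chromosomal passenger complex, overlapped with a difference of -0.96 ± 0.39. Cdk1, the kinase that starts mitosis, was at 9.91, 10.4 and 6.42 FPKM and 6.01, 4.91 and 3.85 FPKM. Library 1 was the highest of its subset in this list too: the mean log2(FPKM + 1) of the list was 3.93, 3.66 and 2.76 in Ly-HSCs and 3.40, 2.64 and 2.45 in My-HSCs, and these ranges overlap. The mean of the replication list was 4.33, 4.37 and 4.07 in Ly-HSCs and 3.76, 3.65 and 3.59 in My-HSCs, without overlap. Of 11 CDK inhibitor and D cyclin genes tested, 6 were higher and 5 lower by sign. Ccnd2, cyclin D2, was at 34.4, 54.9 and 49.3 FPKM and 63.9, 69.6 and 72 FPKM, and Cdk4, its kinase, at 41.6, 40.8 and 45.3 FPKM and 26.2, 40.5 and 29.8 FPKM, and each separated the groups, in opposite directions. Cdkn1a, which encodes the inhibitor p21, overlapped at 4.2, 2.62 and 10.8 FPKM and 25.2, 2.95 and 20.5 FPKM, and so did Ccnd1, cyclin D1, at 5.29, 10.5 and 12 FPKM and 7.14, 20.4 and 24.8 FPKM.

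Immediate early genes, which cells switch on soon after stimulation, were mostly on the My-HSC side. Of 12 tested, 8 were higher by sign with a median of 0.42, 6 separated the groups on the My-HSC side (50%) and 1 on the other (8.33%), and none passed. Atf3, a stress-induced transcription factor, was at 13.9, 6.22 and 12.4 FPKM in Ly-HSCs and 29.5, 24.3 and 37.4 FPKM in My-HSCs, with an adjusted p of 0.147, or 0.0394 without the libraries numbered 1. Egr3 was at 0, 11.4 and 8.93 FPKM and 36.2, 24.2 and 28.3 FPKM, Junb at 267, 210.2 and 239.6 FPKM and 339.6, 335 and 315 FPKM, and Klf2, a factor of quiescence in lymphocytes, at 63.5, 162 and 86 FPKM and 192, 209 and 187 FPKM. The adjusted p of Egr3 was 0.356, or 0.0208 without the libraries numbered 1. Btg2, an antiproliferative gene, was at 43.6, 51.9 and 28.5 FPKM and 77.3, 66.2 and 77.5 FPKM. In the young libraries 5 of the 12 were higher with a median of -0.06. Without library 1 of young Ly-HSCs, which stood apart as given below, 2 were higher and 10 lower with a median of -0.41. Fos, Jun and Egr1 were not analysed here.

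Lineage priming genes are those that stem cells transcribe at a low level before commitment. Of 22 lymphoid genes tested, 13 were lower and 9 higher in My-HSCs by sign with a median of -0.12, and none passed the test. 5 separated the groups on the Ly-HSC side (22.7%) and 3 on the other (13.6%). Leaving out the libraries numbered 1, 15 of the 22 were lower with a median of -0.28, and in the young libraries 16 were lower with a median of -0.20. On the Ly-HSC side, beside Sox4, Il12a, a subunit of interleukin-12, was at 35.1, 32.3 and 23.8 FPKM and 18.8, 15.4 and 16 FPKM, and Lax1, an adaptor of lymphocyte receptors, at 29.8, 27.3 and 32.7 FPKM and 21.5, 16.8 and 13.6 FPKM. On the My-HSC side, Id2, the inhibitor of E proteins needed for innate lymphoid cells, was at 12.6, 1.09 and 5.8 FPKM in Ly-HSCs and 29.6, 13.7 and 14 FPKM in My-HSCs, and Lck, a kinase of T cells, at 3.65, 4.6 and 6.38 FPKM and 12.4, 6.67 and 6.71 FPKM. Of the 37 lymphoid genes with values, 6 stayed under 1 FPKM in all 6 libraries. Among them were Rag1, at 0, 0 and 0 FPKM and 0.868, 0.0582 and 0.0215 FPKM, and Dntt, at 0, 0.702 and 0 FPKM and 0.403, 0 and 0.0328 FPKM. Other untested members passed 1 FPKM in a library numbered 1. Il7r was at 0, 0.132 and 0 FPKM in Ly-HSCs and 3.44, 0 and 0 FPKM in My-HSCs, and Cd2 at 20.8, 0.212 and 0 FPKM and 6.04, 0.159 and 0 FPKM.

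Of 18 myeloid genes tested, 9 were higher and 9 lower, and 1 separated the groups in each direction (5.56%). Without the libraries numbered 1, 10 of the 18 were lower with a median of -0.04, and in the young libraries 9 were lower with a median of -0.07. Cebpa, the master factor of granulocytes and monocytes, was at 10.7, 6.55 and 4.64 FPKM in Ly-HSCs and 2.32, 1.48 and 2.31 FPKM in My-HSCs, which is the side opposite to the subset's name, with an adjusted p of 0.271. Prtn3, a protease of granulocyte precursors, was at 69.7, 58.1 and 54 FPKM and 106, 79.7 and 88.6 FPKM, with an adjusted p of 0.284. Spi1, which encodes the myeloid factor PU.1, was at 56.7, 30.3 and 27.4 FPKM and 39.1, 20.5 and 18.5 FPKM, and Cebpe, a factor of late granulocytes, at 1.69, 0.582 and 0.0880 FPKM and 8.89, 1.55 and 0.911 FPKM, both with overlap. The median of this list, 0.12, moved between -0.54 and 0.50 with 1 library left out. The summed markers of granulocytes and of monocytes and macrophages were highest in the libraries numbered 1, and their part in this list was not tested. Klrb1c encodes NK1.1, an antigen of natural killer cells that the lineage cocktail removed, and it was the one tested gene of 14 T and NK markers. It was at 0, 1.75 and 1.03 FPKM in Ly-HSCs and 6.16, 20.1 and 13.4 FPKM in My-HSCs, with an adjusted p of 0.102, or 0.00405 without the libraries numbered 1. Other natural killer genes stayed low in My-HSC libraries 2 and 3, with Ncr1 at 0, 0 and 0 FPKM, Prf1 at 0, 0.466 and 0 FPKM and Eomes at 2.14, 0.149 and 0 FPKM in My-HSCs.

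**Figure D4:**
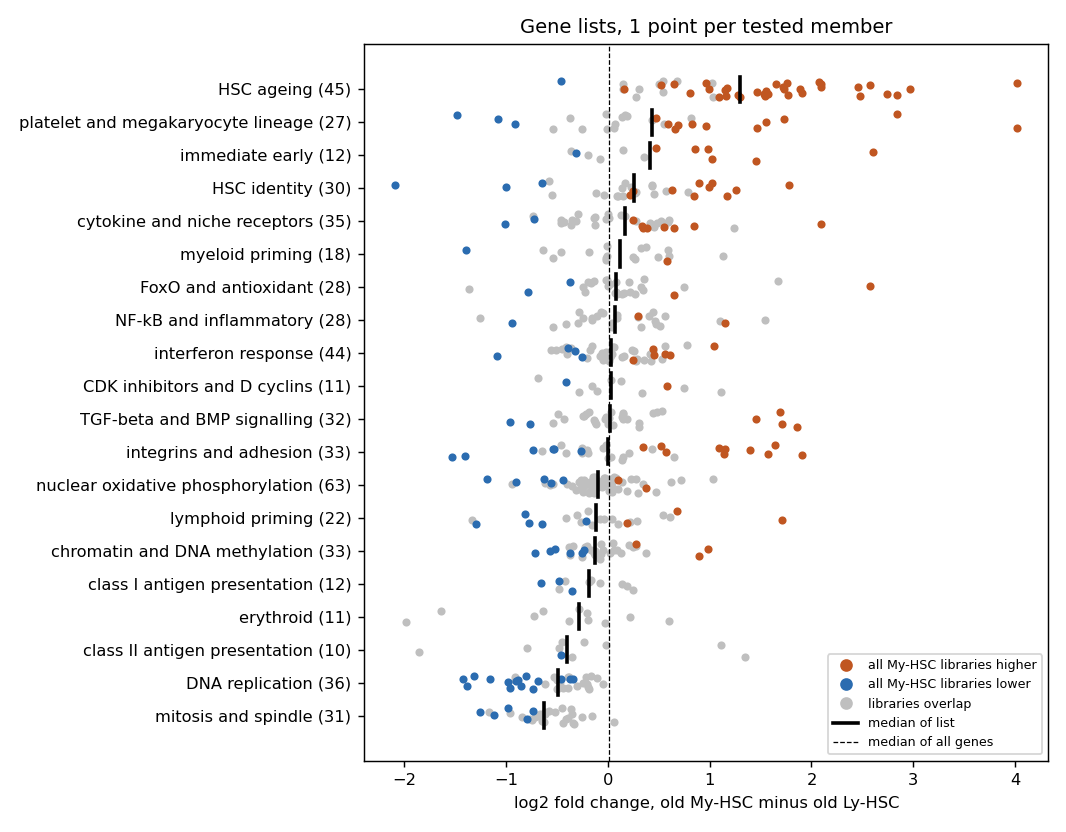
Log2 difference of old My-HSCs minus old Ly-HSCs for the tested members of each gene list, with 1 point per gene, coloured where all My-HSC libraries lie on one side of all Ly-HSC libraries, a bar at the median of each list and a dashed line at that of all genes tested. The ageing list has a median of 1.30 and the mitosis and replication lists have medians of -0.63 and -0.49. The platelet and immediate early lists have medians of 0.43 and 0.42 and the class II list one of -0.40. The median of all genes is 0.02.

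Of the antigen presentation genes, none passed the test. Of 12 class I genes tested, 9 were lower by sign with a median of -0.18 and 3 separated the groups, all on the Ly-HSC side (25%). Tap2, a subunit of the peptide transporter, was at 95.7, 118 and 118 FPKM in Ly-HSCs and 79.4, 71.5 and 59.7 FPKM in My-HSCs, with an adjusted p of 0.223, or 0.0292 without the libraries numbered 1. Of 10 class II genes tested, 8 were lower by sign with a median of -0.40, and Cd74 alone separated the groups (10%). H2-Ob, a chain of the peptide-loading inhibitor H2-O, was at 25.4, 6.27 and 8.49 FPKM and 6.48, 1.67 and 0.933 FPKM, with an adjusted p of 0.385, or 0.0343 without the libraries numbered 1. H2-DMb1 and H2-DMb2, chains of the peptide loader, had the other sign, at 1.12 ± 0.43 and 1.35 ± 0.54. The adjusted p of H2-DMb1 was 0.448, or 0.0401 without the libraries numbered 1. Of the nonclassical class I genes, H2-Q7 had a difference of -0.48 ± 0.15, H2-Q6 of -0.35 ± 0.14 and H2-M3 of -0.42 ± 0.28. Some histocompatibility genes of these lists, such as the H2-Q genes, are near copies of one another. The values of such genes depend on how reads were divided among them, which no source used here states. Of 44 interferon response genes, 26 were higher and 18 lower with a median of 0.03, and 6 separated the groups on the My-HSC side (13.6%) and 4 on the other (9.09%). Gbp6, an interferon-induced GTPase of another family of near copies, was at 29.9, 20.0 and 31.6 FPKM and 71.9, 50.4 and 48.2 FPKM. Irf1, a factor of the response, was at 71.1, 71 and 74.1 FPKM and 58.7, 52.4 and 61.7 FPKM. Ifi44 and Gbp8 lay on the My-HSC side by 0.56 ± 0.22 and 0.45 ± 0.19. Of 28 NF-kB and inflammatory genes, 16 were higher and 12 lower, 2 separated the groups on the My-HSC side (7.14%) and 1 on the other (3.57%), each a smaller share than that of all genes, and none passed. Rel, the c-Rel subunit, was at 13.6, 8.07 and 11 FPKM and 6.99, 4.38 and 4.28 FPKM. Socs3, a feedback inhibitor of cytokine signals, was at 22.5, 5.89 and 11.4 FPKM and 73, 19 and 32.5 FPKM, and the chemokine Cxcl10 at 0.680, 0.685 and 0.304 FPKM and 3.83, 2.78 and 1.2 FPKM. Cxcl10 is 1 of the 2 that separated on the My-HSC side. It reached the level needed for testing in My-HSCs only, which fixed its separation. Myd88, the adaptor of Toll-like receptors, had a difference of 0.56 ± 0.23.

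Receptors and ligands of the niche were examined in a pair of lists. Of 35 cytokine and niche receptors tested, 21 were higher by sign with a median of 0.17, 8 separated the groups on the My-HSC side (22.9%) and 2 on the other (5.71%), and none passed. The filter fixed the separation of 2 of the 35, Osmr and S1pr2, which reached the level needed for testing in 1 subset only. Osmr, the receptor chain for oncostatin M, was at 0, 0.0628 and 0 FPKM in Ly-HSCs and 3.69, 3.61 and 2.82 FPKM in My-HSCs, with an adjusted p of 0.102. Ptger4, a receptor of prostaglandin E2, was at 7.84, 8.36 and 8.26 FPKM and 11.5, 19.1 and 16.8 FPKM, with an adjusted p of 0.322, or 0.0471 without the libraries numbered 1. On the Ly-HSC side, S1pr2, a sphingosine phosphate receptor, was at 2.61, 2.02 and 1.38 FPKM and 0.0529, 0.712 and 0.775 FPKM. Of 32 TGF-beta and BMP genes, 18 were higher and 14 lower with a median of 0.03, 4 separated the groups on the My-HSC side (12.5%) and 2 on the other (6.25%), and none passed. Among single members, some chosen after their values were seen, the ligand Tgfb3 was at 1.01, 1.83 and 2.48 FPKM and 6.05, 4.38 and 9.65 FPKM, Bmp4 at 5.24, 3.81 and 0.306 FPKM and 8.17, 13 and 9.22 FPKM, and Inhba, the chain of activin A, at 3.77, 0.190 and 1.34 FPKM and 10.8, 7.35 and 5.38 FPKM. Inhba had an adjusted p of 0.292, or 0.0431 without the libraries numbered 1, and each of these 3 genes separated the groups. Bmp2k, a kinase induced by BMP, was on the other side at 14.1, 15.1 and 14.8 FPKM and 5.05, 8.85 and 7.8 FPKM, as was the decoy receptor Bambi, at 2.83, 2.13 and 4.28 FPKM and 1.44, 1.26 and 1.37 FPKM.

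Adhesion genes split evenly, with 17 of 33 higher and 16 lower and a median of 0.00. 10 separated the groups on the My-HSC side (30.3%) and 6 on the other (18.2%), and none passed. Jam3, a relative of Jam2, was at 4.08, 6.18 and 8.92 FPKM in Ly-HSCs and 22.8, 22.1 and 18.8 FPKM in My-HSCs, with an adjusted p of 0.0964, or 0.0304 without the libraries numbered 1. Alcam, a cell adhesion molecule of the immunoglobulin family, was at 12, 14.2 and 12.4 FPKM and 27.9, 32.9 and 25.2 FPKM, with an adjusted p of 0.0957, or 0.0394 without them. On the Ly-HSC side, Cd37, a tetraspanin of leukocytes, was at 43.6, 32.7 and 38.7 FPKM and 23.7, 8.87 and 9.14 FPKM, with an adjusted p of 0.179, or 0.00321 without them. Itga4, the VLA-4 integrin chain that holds stem cells in marrow, was at 67.5, 67.6 and 66.8 FPKM and 47.9, 44.2 and 46.6 FPKM, and its libraries agreed closely within each subset. Itga6, the laminin receptor chain, was at 32.5, 40.7 and 42 FPKM and 43.3, 63.7 and 67.1 FPKM.

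None of the chromatin and metabolic genes passed the test. Of 33 chromatin genes, 21 were lower and 12 higher by sign with a median of -0.13. Dnmt1, the maintenance DNA methyltransferase that works at the replication fork, was at 77.4, 95.1 and 88.5 FPKM in Ly-HSCs and 56.6, 64.6 and 53.6 FPKM in My-HSCs, and Sirt7, a nuclear deacetylase, at 10.6, 11.1 and 12.9 FPKM and 6.33, 6.79 and 6.79 FPKM. On the other side, Ezh1, a Polycomb methyltransferase of resting cells, was at 13.6, 25.5 and 26 FPKM and 37.6, 45.1 and 37 FPKM, and Chd7, a chromatin remodeller, at 8.79, 7.97 and 10.1 FPKM and 25.4, 14.4 and 17.4 FPKM. Of 28 FoxO and antioxidant genes, 18 were higher and 10 lower with a median of 0.08. Gstm2, a glutathione transferase, was at 0, 3.5 and 1.04 FPKM and 11.7, 15.2 and 8.43 FPKM, and Prdx6, a peroxiredoxin, at 51.6, 38.3 and 46.4 FPKM and 70.0, 61 and 84.4 FPKM. Gpx3, a glutathione peroxidase, was highest in library 1 of each subset, at 12, 1.47 and 3.91 FPKM and 34.3, 11.8 and 10.2 FPKM, with an adjusted p of 0.444, or 0.0458 without the libraries numbered 1. The difference of Gstm5 was 0.75 ± 0.32. Of 63 nuclear genes of oxidative phosphorylation, 39 were lower and 24 higher with a median of -0.10. Without the libraries numbered 1, 37 of the 63 were higher with a median of 0.08, so the direction of that list turned with those libraries. The 4 members of smallest p were all on the Ly-HSC side: Atp5s, a factor of the ATP synthase, at 23.3, 18 and 17.9 FPKM and 7.72, 11.5 and 5.85 FPKM, Ndufs7, a subunit of complex I, at 42, 34.9 and 32.7 FPKM and 26.3, 22.2 and 25 FPKM, Ndufaf1, an assembly factor of that complex, with a difference of -0.90 ± 0.28, and Cox7c, a subunit of cytochrome c oxidase, with one of -0.44 ± 0.16.

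The young libraries offer the same contrast in mice that share no library with the old ones. Of the 12 genes, 12 had the same sign in young mice and 11 also separated the young groups, against 8.97% of all genes on the My-HSC side and 4.41% on the other. 3 of the 12 also passed in young mice, where 13 genes did (0.119%): Vwf, Sdpr and Gda, with an adjusted p of 0.0311, 0.0311 and 0.0484 from limma. Vwf was at 2.03, 5.71 and 0.143 FPKM in young Ly-HSCs and 36.6, 24.6 and 27.6 FPKM in young My-HSCs. Sdpr was at 0.565, 7.38 and 5.96 FPKM and 32.3, 34.7 and 45.2 FPKM, and Gda at 13.2, 11.4 and 4.62 FPKM and 32.5, 30.9 and 34 FPKM. Clu, which led the old comparison, was at 0.0444, 0.0224 and 0 FPKM in young Ly-HSCs and 2.41, 4.85 and 2.97 FPKM in young My-HSCs, and Clca3a1 at 9.86, 1.28 and 9.88 FPKM and 44.8, 38.3 and 26.5 FPKM. Runx3 was at 30.8, 41.8 and 43 FPKM and 20.8, 12.7 and 10.0 FPKM, again on the Ly-HSC side. The exception was Cldn5, at 0, 0 and 1.44 FPKM and 0, 1.5 and 0.154 FPKM, where the young groups overlap.

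No gene passed in the test of whether the difference between subsets itself differed between old and young mice. Of 10900 genes over all 12 libraries, 0 passed (0%), 616 had an unadjusted p under 0.05 in limma (5.65%), and the smallest adjusted p was 0.656. In each of the 6 genes of smallest p the young groups did not overlap. P3h2, a collagen prolyl hydroxylase, was at 0.0599, 0.333 and 0.337 FPKM in young Ly-HSCs and 18.9, 22.7 and 9.9 FPKM in young My-HSCs, against 1.62, 4.7 and 3.01 FPKM and 5.09, 5.79 and 4.7 FPKM in the old. Gadd45b, a stress-response gene, was at 0, 1.83 and 0 FPKM and 13.1, 17.1 and 16.6 FPKM in the young, against 15, 7.17 and 18.1 FPKM and 22, 11.8 and 16.9 FPKM in the old. Zfp456, a zinc finger gene, was at 0, 0.712 and 0.0678 FPKM and 10.1, 14.2 and 10.9 FPKM in the young, against 4.87, 7.78 and 6.75 FPKM and 6.73, 3.48 and 5.25 FPKM in the old. Cept1, Slfn9 and Psma5 completed the 6, with an old minus young difference of -3.26 ± 0.66, -1.96 ± 0.41 and 1.99 ± 0.42 and an adjusted p of 0.682 each. Selp was at 1.08, 7.62 and 11.8 FPKM and 2.47, 5.38 and 12.5 FPKM in the 2 young subsets, and its old minus young difference of 1.34 ± 0.85 had an adjusted p of 0.906.

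Replication and mitosis genes were also counted in the young libraries, where 6219 of the 10517 genes were higher in My-HSCs by sign and the median of all was 0.13. Of the 36 replication genes 25 were higher in young My-HSCs with a median of 0.31, and of the 31 mitosis genes 24 with a median of 0.88. Library 1 of young Ly-HSCs stood apart, with 34.1% of genes listed at 0 against 19.3% to 28.4% in the other 5 young libraries. Without it, 20 of the 36 replication genes were higher with a median of 0.12 against 0.06 over all genes, and 23 of the 31 mitosis genes with a median of 0.65. The mean log2(FPKM + 1) of the replication list in young Ly-HSCs was 3.09, 3.80 and 3.95 and overlapped that in young My-HSCs, 3.78, 4.09 and 3.96. That of the mitosis list was 1.18, 1.98 and 1.96 in young Ly-HSCs and 1.70, 2.89 and 2.79 in young My-HSCs, and overlapped too. Library 1 of young Ly-HSCs was the lowest of the young libraries in both. The difference between ages was not tested for a list. For single members, the old minus young difference of Chaf1a was -2.01 ± 0.56 with an adjusted p of 0.682 and that of Mcm5 -1.03 ± 0.46 with an adjusted p of 0.864. The ageing list kept its side. Its mean was 3.09, 3.39 and 3.36 in old Ly-HSCs against 4.44, 4.85 and 4.71 in old My-HSCs. The young means were 1.74, 1.94 and 1.93 for Ly-HSCs against 2.76, 3.01 and 2.97 for My-HSCs. Old Ly-HSCs thus stood above young My-HSCs in this list, which was written with such results known.

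**Figure D5:**
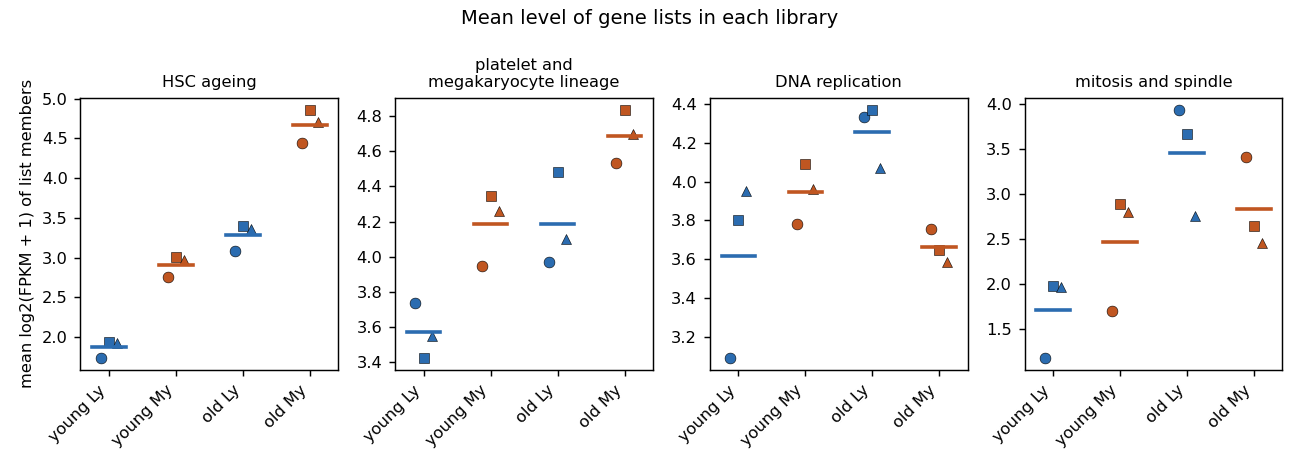
Mean log2(FPKM + 1) of the members of the ageing, platelet, replication and mitosis lists in each of the 12 libraries, with 1 point per library, its shape showing the library number, and a bar at the mean of each group. The vertical axes differ between panels and do not start at 0. In the replication list the old My-HSC points, 3.59 to 3.76, lie below the old Ly-HSC points, 4.07 to 4.37, and the young groups overlap.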

How the data were processed

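Stranded mRNA libraries (KAPA kit) were sequenced from paired ends (HiSeq3000), per the labels' protocols. The authors deposited FPKM per gene and library, per the labels, and bcl2fastq 2.17, STAR, DESeq2 and the build GRCm38 (mm10) appear in the submitters' processing notes. Their annotation and their treatment of reads that map more than once are not given in any source used here. Read totals are unknown.

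Values were analysed as log2(FPKM + 1), with a pseudocount of 1. Genes with an FPKM of at least 1 in 3 or more of the 6 old libraries were tested with limma 3.58.1 in R 4.3.3, with a trend in the prior variance, equal weights, two-sided tests and Benjamini-Hochberg adjustment. The difference between ages was fitted over all 12 libraries. The script was tested on simulated data. Same-numbered old libraries deviated together, with correlations of 0.225, 0.219 and 0.196 against -0.197 to 0.0843 for other pairs across subsets, so the pairing is given as a second model. In the young libraries these correlations were 0.0482, 0.0026 and 0.0023.

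Gene coordinates come from GENCODE M21, which matched 14139 of the 14143 genes, and promoter sequences from RefSeq on GRCm38.p6. Members and lists were chosen with earlier results of these data known. Named genes are those that passed, filled to 15 in each direction by smallest p among genes without overlap, all sort antigens, the 4 members of smallest p of each gene list, and the 6 genes of smallest p for the difference between ages. Some members that the rule names are not reported here. Other list members and markers named were chosen after their values were seen. List counts without libraries that stand apart were also chosen after seeing the data. Alternatives covered the pseudocount, filter, scaling, trend, weights, pairing, the samples fitted and libraries left out.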

Additional observations from a re-analysis of the deposited data

How the results depend on the processing

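The 12 genes found in the old comparison were 11 with a pseudocount of 0.1, 12 with 0.5, 12 with median-of-ratios and with TPM scaling, 10 with an FPKM of at least 1 in every library and 11 with 1 weight per group. The count was 31 with quantile normalization, 3 with the replicate block, 1 with no trend in the prior variance, 3 over all 12 libraries, 0 over all 12 libraries with the replicate block, where limma gave 448 genes at an unadjusted p under 0.05, and 0 with no filter, where it gave 1212 among 13671 genes. It was 177 without all libraries numbered 1 and, in an alternative chosen after seeing the data, 293 with 1 weight per library, whose weights were 0.240, 1.98 and 1.15 for Ly-HSCs and 0.397, 1.92 and 2.39 for My-HSCs. Leaving out 1 library at a time gave 0 to 19. The cause of these changes was not tested. Over up to 20 alternatives, Clu passed in 14 of 19, Clca3a1 in 13, Sdpr and Runx3 in 12, Vwf, Gda, Fgd5 and Sult1a1 in 11, Plcl1 and Ehd3 in 10, Art4 in 9 and Cldn5 in 5 of 15, and none changed sign. The test of the difference between ages gave 0 genes under every alternative, the replicate block included (681 at an unadjusted p under 0.05), except 6 with no filter, and 0 to 0 with 1 library left out. The median of all genes moved between -0.01 and 0.04 over the alternatives. Under the 3 scalings, 0 of 36 replication genes were higher in My-HSCs and 44 of 45 ageing genes were, and with 1 library left out 1 to 4 and 42 to 44 were. With 3 pools a side and unknown read totals, small differences of low genes cannot be resolved.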

Other observations

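The genes below were chosen after their values were seen, and are given as values. The receptor chains that pair with Calcrl, the receptor of the vascular peptide adrenomedullin and of CGRP, lay on opposite sides: Ramp1 is described above, and Ramp2, which makes the adrenomedullin receptor, was at 0, 1.93 and 0.248 FPKM in Ly-HSCs and 7.77, 15.2 and 18.3 FPKM in My-HSCs, a log2 difference of 3.18 ± 0.51 with an adjusted p of 0.0716 from limma, or 0.00777 without the libraries numbered 1. Calcrl itself was at 34.6, 28.6 and 24.8 FPKM and 36.5, 48 and 48.3 FPKM, with an adjusted p of 0.375, or 0.0401 without those libraries. In the young libraries Ramp2 was at 0.0624, 0.0315 and 0 FPKM in Ly-HSCs and 13, 0 and 4.87 FPKM in My-HSCs, and Ramp1 at 79.9, 38.8 and 44.1 FPKM and 38.5, 18.7 and 25.4 FPKM.

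Homeobox genes of the B cluster, which pattern the embryo and are active in stem cells, lay on the My-HSC side in several neighbouring genes. Beside Hoxb8, Hoxb9 was at 0, 0.853 and 0.448 FPKM in Ly-HSCs and 6.16, 4.66 and 6.16 FPKM in My-HSCs, Hoxb7 at 1.03, 0 and 1.36 FPKM and 2.15, 4.82 and 2.11 FPKM, Hoxb5 at 0.101, 5.36 and 5.48 FPKM and 9.03, 15.1 and 10.4 FPKM, and Hoxb3 at 30.0, 28.7 and 34.5 FPKM and 41.8, 51.2 and 59.4 FPKM, each without overlap and none past the test. For Hoxb9 the filter fixed the separation, because it reached the level needed for testing in My-HSCs only. Hoxb6 was at 11.7, 9.92 and 15.8 FPKM and 8.67, 42.1 and 40.7 FPKM, where the libraries numbered 1 were close and the others apart, with an adjusted p of 0.605 from limma, or 0.0104 without them. Hoxb2 and Hoxb4 overlapped. Of the A cluster, Hoxa9 lay on the Ly-HSC side, at 38.6, 31.7 and 45.5 FPKM and 20.6, 22 and 30.7 FPKM, and Hoxa5, Hoxa7 and Hoxa10 overlapped.

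Other transcription factors and signalling genes also separated the old groups. Mycn, a MYC family factor, was at 9.23, 47.9 and 44.8 FPKM in Ly-HSCs and 64.1, 142 and 121 FPKM in My-HSCs, with an adjusted p of 0.328 from limma, or 0.00321 without the libraries numbered 1, while Myc was at 95.8, 175 and 172 FPKM and 115, 119 and 100.2 FPKM. Clnk, an adaptor of immune receptor signalling, was at 11.5, 37 and 49.6 FPKM and 6.58, 4.48 and 5.34 FPKM, with an adjusted p of 0.164, or 0.000702 without them. Syk, a kinase of the same signalling, was at 40.1, 42.4 and 44.6 FPKM and 39.4, 15.9 and 15.9 FPKM, with library 1 of My-HSCs near the Ly-HSC level. It did not pass with all 6 libraries, and its adjusted p was 0.00553 without those numbered 1. In the young libraries Clnk was at 0.179, 16.9 and 28.6 FPKM in Ly-HSCs and 15.2, 6.35 and 3.75 FPKM in My-HSCs.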
